A study of Homo sapiens with 4 samples.

Results

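The 6 desaturase genes SCD, SCD5, FADS1, FADS2, FADS3 and DEGS1 were described in human leukaemia cells that had grown in the brain or the spleen of mice. They were taken by symbol from a gene table of 65217 rows, through the Ensembl identifiers that GENCODE pairs with these names. All 6 had a row, and all 6 passed the filter on low counts that left 17075 genes for testing.

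The cells were of the SEM line, an established human line of B-cell precursor leukaemia with a KMT2A-AFF1 fusion (MLL-AF4). They were transplanted into immunodeficient mice of 6 to 10 weeks, recovered after death and enriched on a Ficoll gradient. One group was the cells retrieved from brain (2 libraries) and the other the cells retrieved from spleen (2 libraries). Per the labels, the leptomeninges were the site sampled in the central nervous system. Each library held the combined RNA of 5 mice, the experiment was carried out on 2 occasions (replicates 1 and 2), and no agent or allele is labelled that would differ between the groups. No source used here gives the mouse strain or the purity that was reached. The series contrasts leukaemia cells of the central nervous system with those of the spleen, and it does so for a single cell line, with pooled mice as the unit of replication. The p-values therefore measure the spread between pools.

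Fatty acid desaturases are iron enzymes of the endoplasmic reticulum membrane that place a double bond in an acyl chain, using oxygen and electrons passed on by cytochrome b5 and its reductase. SCD and SCD5 are delta-9 desaturases, which turn the saturated products of fatty acid synthesis into monounsaturated palmitoleate and oleate. FADS2 is the delta-6 and FADS1 the delta-5 desaturase of the pathway that makes long polyunsaturated fatty acids, abundant in nervous tissue, from essential fatty acids of the diet. FADS3 resembles both in sequence and has been linked to sphingoid bases, and DEGS1 desaturates dihydroceramide to ceramide. Transcription of SCD, FADS1 and FADS2 is known to be driven by the sterol regulatory element-binding proteins and, for SCD, by liver X receptors.

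Gene counts summed to between 26266136 and 36913437 per library, and the limit allowed by a count of 0, which is 3 counts, stood for 0.0813 to 0.114 CPM (counts per 1e6 counts of a library). All of the members lay far above it. Of the B-cell precursor markers, 10 of 10 were tested, and their summed level was 2591 and 2432 CPM in the brain libraries, against 2096 and 2186 CPM in the spleen libraries. CD22, a B-cell surface receptor, passed by edgeR as higher in brain and CD34, a progenitor antigen, as lower. Markers of other cell types are given beside the results they touch. Spleen replicate 2 stood apart: the genes in its lowest GC quintile deviated by -0.38 on the log2 scale from the mean of the libraries, against 0.13 to 0.15 in the other 3 libraries. Across all genes 345 were called at an adjusted p under 0.05 (edgeR's quasi-likelihood test, Benjamini-Hochberg over all genes), which is 2.02% of those tested. Of these 279 were higher in brain (1.63%) and 66 lower (0.387%), and blocking on the replicate number brought this to 1853 genes (10.9%).

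The 250 bases before the RefSeq start (GRCh38.p14) are shown for SCD, the member with the largest difference, for SCD5, its paralogue whose groups overlapped, and for FADS3, a member of the gene cluster on chromosome 11. They are written 5′ to 3′ on the strand of the gene, with every match to CCAAT or GGGCGG in capitals, on either strand (ATTGG and CCGCCC are the same motifs on the opposite strand). These windows lie at chr10:100346983-100347232 on the plus strand for SCD, at chr4:82798797-82799046 on the minus strand for SCD5 and at chr11:61891546-61891795 on the minus strand for FADS3, and none of them overlaps an annotated exon.
SCD: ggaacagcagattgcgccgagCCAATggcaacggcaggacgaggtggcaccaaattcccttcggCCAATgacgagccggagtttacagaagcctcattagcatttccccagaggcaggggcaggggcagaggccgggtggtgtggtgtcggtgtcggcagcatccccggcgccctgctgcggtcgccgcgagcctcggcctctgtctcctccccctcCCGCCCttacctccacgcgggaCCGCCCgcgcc
SCD5: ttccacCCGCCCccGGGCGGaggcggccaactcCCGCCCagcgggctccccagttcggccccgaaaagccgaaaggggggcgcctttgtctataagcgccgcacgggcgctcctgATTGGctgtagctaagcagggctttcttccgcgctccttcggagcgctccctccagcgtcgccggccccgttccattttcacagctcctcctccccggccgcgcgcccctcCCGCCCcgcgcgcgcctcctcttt
FADS3: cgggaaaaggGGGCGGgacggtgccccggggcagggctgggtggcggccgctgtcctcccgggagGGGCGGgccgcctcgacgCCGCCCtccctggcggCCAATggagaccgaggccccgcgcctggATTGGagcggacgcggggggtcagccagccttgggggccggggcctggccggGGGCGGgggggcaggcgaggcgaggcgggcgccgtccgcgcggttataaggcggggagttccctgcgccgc
CCAAT is the box bound by nuclear factor Y and GGGCGG the GC box bound by Sp1-family factors. The SCD window held 2 CCAAT boxes, from -229 to -225 and from -186 to -182 relative to the start, and 2 GC boxes within the last 33 bases. The SCD5 window held 1 CCAAT box and 4 GC boxes, and the FADS3 window 2 CCAAT boxes and 4 GC boxes. Of 34788 promoter windows of this length in the same table, 32% held a CCAAT and 42.6% a GGGCGG, so that both motifs are common. The sterol response element core TCACCCCAC, known from the LDL receptor gene, is in 0.356% of the windows and its looser form TCACNCNAC in 2%. Neither was in the windows of SCD, SCD5, FADS1, FADS3 or DEGS1, and 1 of the 2 FADS2 windows held the looser form. The motifs ACGTG, in 18.5% of all windows, and CACGTG, in 6.31%, were in no window of the 6 members. The letters of one short window say nothing of binding elsewhere, and the FADS1 and FADS2 windows are not printed because they overlap annotated exons.

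SCD, the main human stearoyl-CoA desaturase (ENSG00000099194, GRCh38 chromosome 10, 100347233 to 100364826, plus strand), had 5183 and 5229 counts in the brain libraries, against 698 and 419 in the spleen libraries. Scaled for depth these were 140.1 and 153 CPM in brain, against 21.2 and 16.6 CPM in spleen. Both brain libraries lay several-fold above both spleen libraries, a gap many times the spread within either group. The means were 147 ± 9.16 CPM in brain, against 18.9 ± 3.24 CPM in spleen (SD, n = 2 each). The log2 fold change of brain over spleen was 2.96 ± 0.18 (SE), a 7.76-fold higher level with a 95% interval of 5.82 to 10.3, and the adjusted p was 0.00043 by edgeR. SCD was the 55th gene of 17075 by fold change and the 9th by p-value. All 14 alternative settings called it, with log2 fold changes of 2.72 to 3.09.

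SCD5, the other human stearoyl-CoA desaturase, which rodents lack (ENSG00000145284, chromosome 4, 82629539 to 82798796, minus strand), had 22.1 and 26 CPM in the brain libraries, against 22.6 and 28.3 CPM in the spleen libraries. The groups overlapped, with replicate 2 above replicate 1 in both. Its log2 fold change was -0.08 ± 0.19 (adjusted p = 0.840, edgeR), and the 95% interval of the fold ran from 0.702 to 1.28. It turned positive, and still did not pass, without brain replicate 1 (0.03, adjusted p = 0.993) and again when spleen replicate 2 was left out (0.10, adjusted p = 0.675).

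Per unit of transcript length the 2 stearoyl-CoA desaturases stood in opposite order in the groups. In TPM (transcripts per 1e6 transcripts, summed over the transcripts of a gene and scaled to human transcripts), SCD had 36.4 and 41.4 in brain, against 5.34 and 3.77 in spleen. SCD5 had 10.3 and 12.7 TPM in brain, against 10.2 and 11.4 TPM in spleen. SCD was thus at 3.54 and 3.26 times the level of SCD5 in the brain libraries and at 0.522 and 0.329 times its level in the spleen libraries. Set against FASN, the synthase that makes palmitate, the SCD level was 0.366 and 0.338 in brain, against 0.0621 and 0.0388 in spleen. The size of this difference depends on the measure. FASN had 99.4 and 122.5 TPM in brain, against 86.0 and 97.2 TPM in spleen. In CPM it stood further apart, at 459 and 478 in brain, against 257 and 302 in spleen. Set against ELOVL6, the elongase that extends palmitate to the SCD substrate stearate, it was 0.215 and 0.276 in brain, against 0.0265 and 0.0230 in spleen. None of these 3 ratios overlapped between the groups, but all 3 have the SCD level as numerator and are not separate results.

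**Figure D1:**
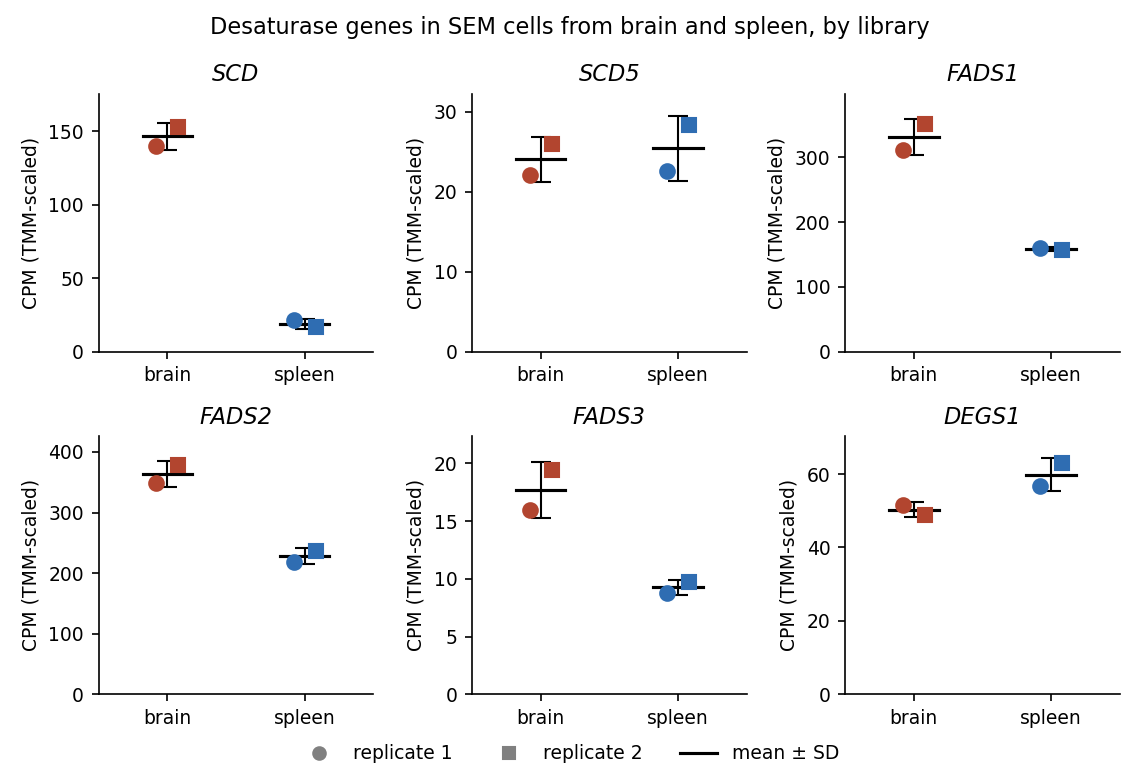
Level of each desaturase gene in every library, in CPM after TMM scaling, with brain left of spleen and the mean ± SD of the 2 libraries of a group as bars. SCD lay at 140.1 and 153 CPM in brain, against 21.2 and 16.6 CPM in spleen; FADS1, FADS2 and FADS3 were also above spleen in both brain libraries, DEGS1 was below it, and SCD5 overlapped.

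Sequence that SCD shares with other human genes was checked. Of the runs of 31 bases in the annotated SCD transcript, 13.4% also occur in other annotated genes, 5 in all. The pseudogene SCDP1 and the 2 other genes that share the most runs had 0 counts in every library, and the remaining 2 had between 0 and 39 counts. How reads from shared runs were divided was not tested, and mouse transcripts were not compared. The deposited SCD counts equalled the sum over its transcript, 1 in number, to the count.

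FADS1, the delta-5 desaturase that makes arachidonic and eicosapentaenoic acid (ENSG00000149485, chromosome 11, 61799627 to 61829318, minus strand), had 11540 and 11983 counts in the brain libraries, against 5297 and 3947 in the spleen libraries. This was 312 and 351 CPM in brain, against 161 and 156 CPM in spleen. The groups lay far apart relative to their spread, with means of 331 ± 27.4 CPM in brain, against 158 ± 3.14 CPM in spleen (SD, n = 2 each). FADS1 rose by a log2 fold change of 1.06 ± 0.14, 2.09-fold with a 95% interval of 1.68 to 2.60 (adjusted p = 0.0126, edgeR). It was called in all 14 alternative settings, with log2 fold changes of 0.93 to 1.14 and a largest adjusted p of 0.0327.

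FADS2, the delta-6 desaturase that opens the same pathway (ENSG00000134824, chromosome 11, 61792980 to 61867354, plus strand), had 12878 and 12953 counts in brain, against 7211 and 5988 in spleen. This was 348 and 379 CPM in the brain libraries, against 219 and 237 CPM in the spleen libraries. The groups did not overlap, but the log2 fold change of 0.67 ± 0.14 (95% interval of the fold, 1.29 to 1.98) narrowly missed the threshold, with an adjusted p of 0.0538 by edgeR. With the replicate number as a block the adjusted p was 0.00985, DESeq2 gave 0.0164, and DESeq2 with the block gave 0.124. The call therefore depended on the setting: 7 of 14 alternatives made it, among them the fits without spleen replicate 1 (2.5e-05) and without spleen replicate 2 (6.2e-06), while the fits without brain replicate 1 (0.263) and without brain replicate 2 (0.408) did not.

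FADS3, whose protein resembles both neighbours (ENSG00000221968, chromosome 11, 61873519 to 61892051, minus strand), was a low member, with 16 and 19.4 CPM in brain, against 8.83 and 9.74 CPM in spleen. Both brain libraries were above both spleen libraries. The log2 fold change was 0.93 ± 0.19 (95% interval of the fold, 1.40 to 2.60) and the adjusted p 0.0576 by edgeR, again just outside the threshold. The block gave an adjusted p of 0.00343, although its SE was larger, at 0.24. DESeq2 gave 0.0116 and DESeq2 with the block 0.111. The same 7 settings made the call as for FADS2, including the fits without spleen replicate 1 (0.000633) and without spleen replicate 2 (0.000324), and the fits without brain replicate 1 (0.0769) and without brain replicate 2 (0.326) did not.

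The 3 FADS genes lie next to each other within chromosome 11, and their neighbours were read for comparison. Of the non-member protein-coding genes within 250 kb, 6 were tested and none was called. Their log2 fold changes ran from -0.61 ± 0.14 for FEN1, a flap endonuclease of DNA replication (138 and 149.96 CPM in brain, 204 and 234 CPM in spleen, adjusted p = 0.0768, edgeR), to 0.52 ± 0.33 for BEST1, a chloride channel gene (1.30 and 1.58 CPM in brain, 0.971 and 1.03 CPM in spleen). The median of these 6 protein-coding genes was -0.17, and 3 of them had a positive value. Whether the region has a part in the FADS values was not tested.

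FADS1 and FADS2 overlap on opposite strands, and the strand option of the authors' quantification is not stated in the sources at hand. The overlap covers 490 exon bases, 4.79% of the FADS1 and 4.64% of the FADS2 exon bases, and FADS2 shares a further 49 with FEN1. Reads from these bases cannot be assigned to a gene with certainty, and the counts of FADS1 and FADS2 are uncertain to that extent. The part of this overlap in the values was not tested.

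DEGS1, the dihydroceramide desaturase (ENSG00000143753, chromosome 1, 224175756 to 224193441, plus strand), had 51.7 and 48.9 CPM in the brain libraries, against 56.7 and 62.9 CPM in the spleen libraries. Here both brain libraries were below both spleen libraries. The difference was small: the log2 fold change was -0.25 ± 0.15 (95% interval of the fold, 0.660 to 1.07, adjusted p = 0.383, edgeR). It passed in 1 of 14 settings, without spleen replicate 1, at -0.37 with an adjusted p of 0.00264. Its deposited count differed from the sum over its transcripts by at most 6.49%.

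Counted together, 2 of the 6 members were called higher in brain and 0 lower, against 1.63% and 0.387% of all tested genes. With the replicate block 4 members were called higher and 0 lower, where 7.48% of all genes were called higher and 3.37% lower. DESeq2 also called 4 higher, with 3.33% of all genes, and DESeq2 with the block called 2, with 1.91%. By edgeR 4 were called higher without a filter on low counts (3.67% of all genes), with the GC and length trend removed (2.58%) and with that removal and the block (7.31%). Both brain libraries exceeded both spleen libraries for 4 of 6 members and were below them for 1, against 30.2% and 26.7% of all tested genes. The median log2 fold change of the members was 0.80 and that of all genes 0.04. When spleen replicate 1 was left out, 4 members were called higher and 1 lower, but 18.9% of all genes were then called higher and 19% lower. Without spleen replicate 2, 4 members were called higher, where 9.64% of all genes were.

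**Figure D2:**
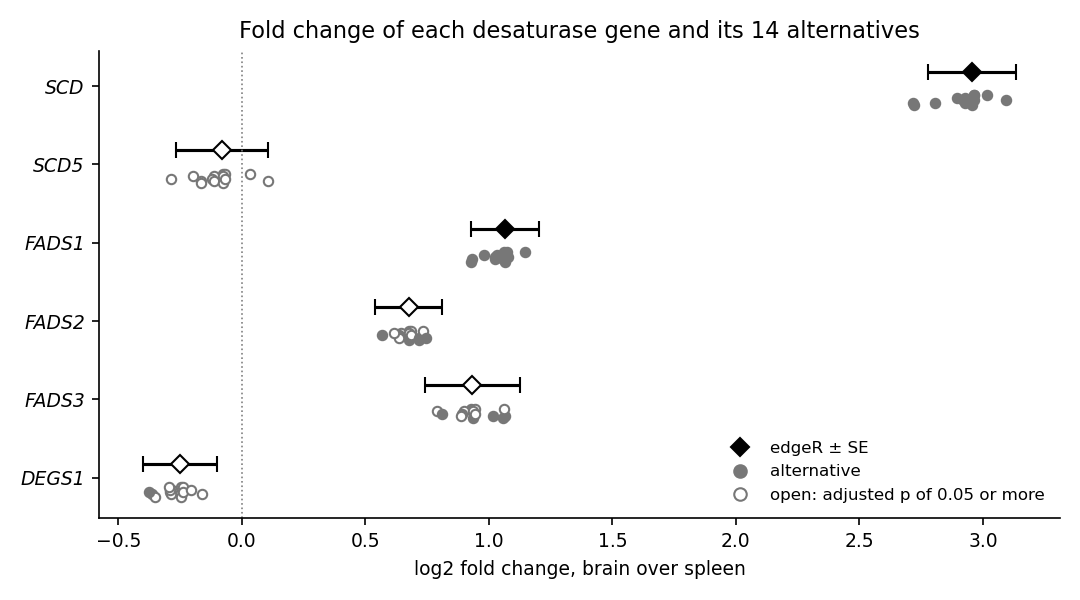
Log2 fold change of brain over spleen for each desaturase gene by edgeR (diamonds, bars ± SE) and in the 14 alternative settings (circles), filled where the adjusted p was under 0.05. SCD and FADS1 are filled throughout, FADS2 and FADS3 are filled in 7 of 14 alternatives, and SCD5 lies around 0.

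Some features of the libraries moved with these differences. The summed stroma, myeloid, T-cell and erythroid markers overlapped between the groups. Mouse transcripts took 2.24% and 1.45% of the estimated counts in brain, against 4.31% and 6.32% in spleen, and mouse genes were not named here. Of the glial and neuronal markers 1 of 10, SYT1, was tested; it missed the threshold by edgeR (log2 fold change 1.07 ± 0.24, adjusted p = 0.0712) and passed as higher in brain by DESeq2 (0.00459) and with the replicate block (7.1e-05). Their sum was 48.5 and 37.9 CPM in brain, against 25.0 and 16.8 CPM in spleen, nearly all of it SYT1 (48.1 and 37.4 CPM in brain, 24.3 and 16.3 CPM in spleen), while SNAP25 and STMN2 were at 0 in all libraries. The endothelial and meningeal stroma markers, 5 of 8 tested and none past the threshold by edgeR, summed to 249 and 201 CPM in brain, against 203 and 174 CPM in spleen, with LUM at 0. Within this list PECAM1 was higher in brain (72.4 and 49.7 CPM in brain, 33.4 and 29.9 CPM in spleen, adjusted p = 0.0672 by edgeR, 0.00998 by DESeq2 and 0.000913 with the block). VWF was lower in brain (0.135 and 0.117 CPM in brain, 0.789 and 0.633 CPM in spleen, adjusted p = 0.0576 by edgeR, 0.0485 with RLE size factors and 0.00415 with the block). The myeloid and microglial markers (4 of 8 tested, none called by edgeR or DESeq2) summed to 53.6 and 41.2 CPM in brain, against 59.2 and 50.9 CPM in spleen, with C1QA and C1QB at 0. The T-cell markers (1 of 5 tested, none called by edgeR or DESeq2) summed to 119 and 104 CPM in brain, against 115 and 138 CPM in spleen, with CD3D and CD2 at 0, and the erythroid markers (1 of 6 tested, none called by edgeR or DESeq2) to at most 0.615 CPM in any library. The part of these signals in the desaturase values was not tested, and in bulk RNA fewer cells with a transcript and less of it per cell cannot be told apart. Removing the trend with GC content and length from each library left SCD and FADS1 called.

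Compared per length within a library, FADS2 had the highest level of the 6 genes in all 4 libraries, with 225 and 251 TPM in brain, against 121 and 111 TPM in spleen. FADS1 was next, with 114 and 137 TPM in brain, against 51.1 and 44.7 TPM in spleen. Its margin over DEGS1, at 35.6 and 37.5 TPM in brain, against 41.5 and 40.0 TPM in spleen, was wide in brain and narrow in spleen. SCD was the third member in brain, close to DEGS1, with which its range overlapped. In spleen it was the lowest of all, below FADS3 with 14.6 and 16.3 TPM in brain, against 7.12 and 7.32 TPM in spleen. SCD5 stayed near the same level and was the lowest member in brain and the fourth in spleen. Among all detected genes SCD stood at percentiles 86.3 and 87.5 in brain, against 64.6 and 60.7 in spleen.

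**Figure D3:**
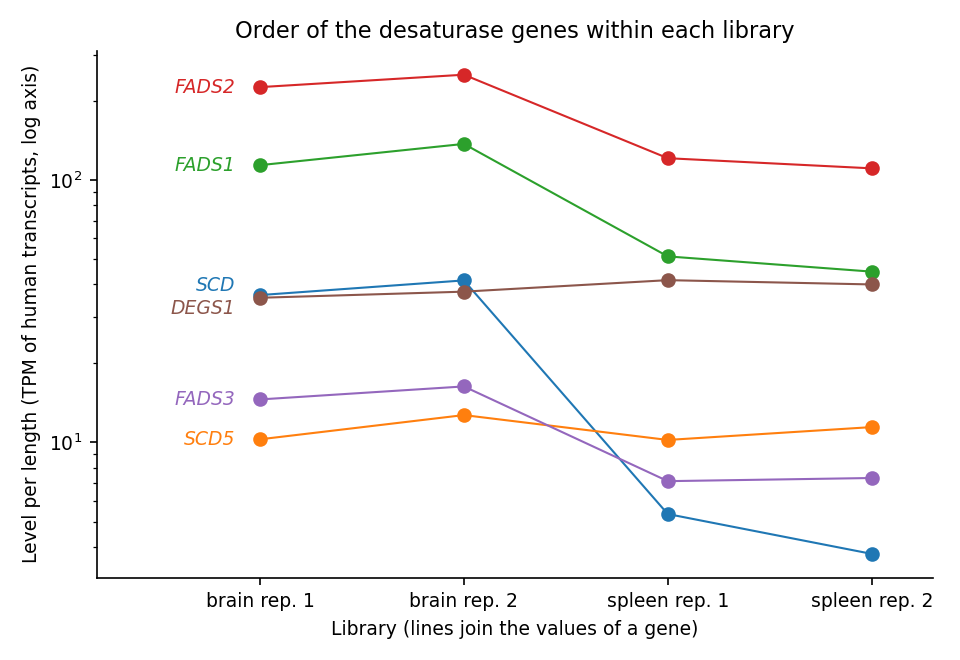
Level per length of the 6 desaturase genes within each library, in TPM of human transcripts on a log axis, with lines joining the values of a gene. FADS2 and FADS1 keep the top places, and SCD is the third gene in both brain libraries and the lowest in both spleen libraries.

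The 6 genes together reached 436 and 496 TPM in the brain libraries, against 236 and 218 TPM in the spleen libraries. FADS2 held a similar share of that sum throughout, 51.7% and 50.6% in brain, against 51.2% and 50.8% in spleen. Short transcripts weigh more per count in such sums. FADS2-204, of 588 bases, held 5.45% and 4.37% of the FADS2 estimated counts in brain, against 2.96% and 1.30% in spleen. It made up 60.1 and 55.9 of the FADS2 TPM in brain, against 19.9 and 8.56 in spleen. Brain over spleen, FADS2 stood at 2.06 in mean TPM, against 1.60-fold in the tested counts. The SCD share was 8.35% and 8.34% in brain, against 2.26% and 1.73% in spleen. The DEGS1 share was 8.16% and 7.56% in brain, against 17.6% and 18.3% in spleen.

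The pathway from linoleate to arachidonate passes through FADS2, an elongase and FADS1. The level of FADS1 relative to FADS2 was 0.505 and 0.545 in brain, against 0.423 and 0.404 in spleen, and the groups did not overlap. Relative to ELOVL5, the elongase between these steps, FADS1 stood at 1.00 and 1.14 in brain, against 0.532 and 0.564 in spleen, again without overlap. The level of FADS2 relative to FADS3 was 15.5 and 15.4 in brain, against 17.0 and 15.1 in spleen, and here the groups overlapped. These ratios are descriptions of 4 libraries, and no test was made of them. Both FADS1 ratios have the same numerator and are not separate results. No share over other pairs of genes was taken. All the ratios rest on summed TPM, in which short transcripts weigh more per count.

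The transcript files list 56 transcripts of the 6 genes: 1 of SCD, 2 of SCD5, 21 of FADS1, 15 of FADS2, 13 of FADS3 and 4 of DEGS1. Of these 21 passed the filter. In the edgeR fit over 59142 transcripts none was called in either direction (0% of all transcripts), the smallest adjusted p being 0.148. At an unadjusted p under 0.05, 4494 transcripts were higher and 3696 lower in brain, and among the member transcripts 10 were higher and 0 lower. DESeq2, added after the data had been seen, called 8 member transcripts higher and 0 lower, where it called 2.8% of all transcripts higher. When spleen replicate 1 was left out, edgeR called 4 of the member transcripts higher, where it called 2.23% of all transcripts higher. The way the pseudoaligner divides reads among overlapping transcripts is not modelled by either test, and the values that follow are descriptions.

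FADS1 and SCD5 each rested on 1 main transcript. FADS1-201 took between 97.6% and 98.9% of the FADS1 estimated counts, with 94.3 and 111 TPM in brain, against 47.6 and 41.8 TPM in spleen. A short transcript, FADS1-213 of 405 bases, was estimated at 81.1 and 106 counts in the brain libraries and at 0 in both spleen libraries. SCD5-202 took between 96.8% and 99.0% of the SCD5 estimated counts.

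FADS2 was divided among transcripts of 2 start regions. Only transcripts annotated as protein-coding were placed in a region. Those of the upstream region begin between 61816256 and 61816546 on the plus strand of chromosome 11. They held 66.9% and 67.0% of the FADS2 estimated counts in brain, against 72.1% and 77.2% in spleen. The downstream region, between 61827392 and 61828300, held 31.7% and 31.1% in brain, against 26.7% and 21.5% in spleen. The share from the downstream region was thus higher in both brain libraries, but no share over all genes was taken of such differences. It was lowest in spleen replicate 2, the library whose GC trend stood apart. FADS2-202 alone held 21.3% and 20.5% in brain, against 20.3% and 16.0% in spleen. Transcripts not placed in a region made up the small rest. The main upstream transcript FADS2-201 had 109 and 122 TPM in brain, against 73.3 and 76.9 TPM in spleen. The downstream transcript FADS2-202 had 28.8 and 31.6 TPM in brain, against 16.8 and 12.9 TPM in spleen.

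FADS2-204, FADS2-209 and FADS2-210 were further apart. FADS2-204, of 588 bases, had 60.1 and 55.9 TPM in brain, against 19.9 and 8.56 TPM in spleen. FADS2-209 had 15.1 and 21.2 TPM in brain, against 6.26 and 7.34 TPM in spleen. FADS2-210, from the upstream region, had 5.40 and 11.6 TPM in brain, against 0.771 and 0.387 TPM in spleen. The short downstream transcript FADS2-206 was low and overlapped, with 0.580 and 0.921 TPM in brain, against 0.428 and 0.869 TPM in spleen. The 5 other FADS2 transcripts named here, chosen after their values were seen, were higher in both brain libraries. They belong to the same gene, which was itself higher in both, and no share over all transcripts was taken.

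FADS3 held a retained-intron transcript whose share differed between the groups. The coding transcript FADS3-201 took 59.2% and 57.2% of the FADS3 estimated counts in brain, against 78.0% and 69.1% in spleen. FADS3-208, annotated as a retained intron, took 19.9% and 22.7% in brain, against 6.88% and 7.73% in spleen, at 1.94 and 2.80 TPM in brain, against 0.359 and 0.400 TPM in spleen. The shares of both transcripts were separate between the groups, but no share over all transcripts was taken. Other retained-intron transcripts overlapped. FADS3-211 took 12.6% and 16.1% in brain, against 12.1% and 18.6% in spleen. FADS3-205 took 5.45% and 2.29% in brain, against 3.07% and 0.244% in spleen. The gene counts of FADS3 therefore include non-coding transcripts.

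**Figure D4:**
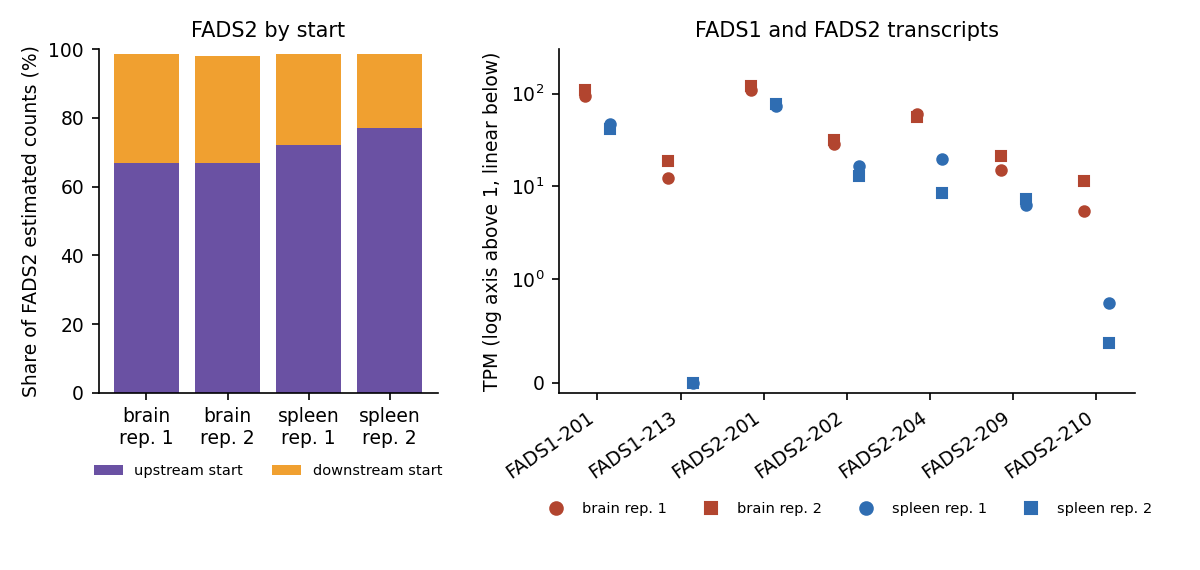
Left, share of the FADS2 estimated counts from protein-coding transcripts of the upstream and the downstream start region in each library, as bars in percent. Right, TPM of FADS1 and FADS2 transcripts in each library on an axis that is logarithmic above 1 and linear below. The downstream share was 31.7% and 31.1% in brain, against 26.7% and 21.5% in spleen, and FADS1-213 was at 0 in both spleen libraries.

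The genes whose profile lay nearest to that of SCD over the 4 libraries were found among 10089 protein-coding genes of at least 5 CPM on average, by Euclidean distance of centred log2 CPM. They were ALDOC, an aldolase of glycolysis (distance 0.525), NDRG1, a stress-responsive gene (0.531), VEGFA, the vascular growth factor (0.638), SCN3A, a sodium channel subunit (0.653), and BNIP3, a mitochondrial protein of mitophagy (0.769). ALDOC had 84.8 and 74.8 CPM in brain, against 7.64 and 8.07 CPM in spleen, at a log2 fold change of 3.34 ± 0.17 (adjusted p = 0.00024, edgeR). NDRG1 had 108 and 101 CPM in brain, against 19.0 and 18.05 CPM in spleen (2.50 ± 0.15), and VEGFA had 23.8 and 20.9 CPM in brain, against 2.00 and 2.65 CPM in spleen (3.27 ± 0.23). None of the desaturase genes and no gene of the related lipid lists was among these 5. With only 4 libraries, a short distance largely means a similar difference between the groups.

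The rest of the lipid pathway was read from 8 lists of related genes. Calls in these lists stand beside all tested genes, of which edgeR called 1.63% higher and 0.387% lower. With the replicate block it called 7.48% higher and 3.37% lower. The electron donors of the desaturases were not called: of 6 listed genes 5 were tested, with a median log2 fold change of -0.16. CYB5B, a cytochrome b5, had 120 and 124 CPM in brain, against 127 and 144 CPM in spleen. CYB5R3, a cytochrome b5 reductase, had 97.9 and 96.0 CPM in brain, against 113 and 132 CPM in spleen. Of the 5 tested genes of this list, 3 were lower in both brain libraries and 1 was higher. Of all tested genes, 26.7% were lower in both and 30.2% higher. More genes of the list were called without spleen replicate 1 or spleen replicate 2, as was so over all genes.

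Of 9 other genes of the desaturase and hydroxylase superfamily, 5 were tested and 1 was called. MSMO1, the sterol C4-methyl oxidase of cholesterol synthesis, had 88.5 and 87.4 CPM in brain, against 36.4 and 32.3 CPM in spleen, at a log2 fold change of 1.36 ± 0.15 (adjusted p = 0.00742, edgeR). SC5D, the sterol desaturase of the same route, had 41.7 and 36.2 CPM in brain, against 22.4 and 13.7 CPM in spleen (1.11 ± 0.25, adjusted p = 0.0780), and it joined MSMO1 under the replicate block. The median of the list was 0.70. Both MSMO1 and SC5D act on sterols and not on fatty acids. The number called in this list rose without brain replicate 2, spleen replicate 1 or spleen replicate 2. Each of these fits also called more of all genes.

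Fatty acid synthesis, which supplies the SCD substrates, had 1 of 9 tested genes called and a median of 0.21. FASN had 459 and 478 CPM in brain, against 257 and 302 CPM in spleen, at a log2 fold change of 0.75 ± 0.14 (adjusted p = 0.0450, edgeR). This call sat near the threshold and was lost without brain replicate 1 and without brain replicate 2. It was also lost with RLE size factors, DESeq2 with the block, the stricter filter and the restriction to protein-coding genes. Leaving out spleen replicate 1 or spleen replicate 2 raised the number called in this list, as it did over all genes.

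Fatty acid elongation had 12 tested genes, none called, with a median of 0.13. ELOVL6 had 280.3 and 222 CPM in brain, against 399 and 262 CPM in spleen, and ELOVL5 had 199 and 207 CPM in brain, against 179 and 167 CPM in spleen. Acyl-CoA synthesis and acyl transfer also had 12 tested genes and none called, with a median of 0.06. LPCAT1, a lysophosphatidylcholine acyltransferase, had 234 and 217 CPM in brain, against 198 and 233 CPM in spleen. ACSL4, an acyl-CoA synthetase of polyunsaturated fatty acids, had 112 and 110.5 CPM in brain, against 92.0 and 55.5 CPM in spleen. With the replicate block HSD17B12, an elongation reductase, was called in the first of these lists and ACSL3 and ACSL4 in the second. That fit called 10.9% of all genes. Both lists had more calls when spleen replicate 1 or spleen replicate 2 was left out, and so had all genes.

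Neutral lipid storage had 9 tested genes, none called, with a median of -0.06. The lipid droplet proteins PLIN2, at 88.6 and 92.6 CPM in brain, against 83.5 and 96.3 CPM in spleen, and PLIN3, at 97.9 and 75.2 CPM in brain, against 84.2 and 100.4 CPM in spleen, overlapped between the groups. Calls arose in this list without spleen replicate 1, a fit that called many more of all genes. Ceramide synthesis, the pathway of DEGS1, had 12 tested genes and 1 called, with a median of 0.05. CERS4, a ceramide synthase, was at a low level, 2.24 and 2.69 CPM in brain, against 0.273 and 0.396 CPM in spleen, at a log2 fold change of 2.89 ± 0.38 (adjusted p = 0.0138, edgeR). Ceramide genes had more calls without spleen replicate 1 or spleen replicate 2, as had all genes.

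Of the regulators of lipid genes 12 were tested, 2 were called higher and 0 lower, with a median of 0.33. Of all tested genes 1.63% were called higher and 0.387% lower. INSIG1, the sterol-regulated retention protein of the SREBP pathway, had 194 and 199.5 CPM in brain, against 64.9 and 49.5 CPM in spleen, at a log2 fold change of 1.78 ± 0.17 (adjusted p = 0.00358, edgeR). SREBF2, which encodes the SREBP of cholesterol genes, had 439 and 463 CPM in brain, against 230 and 250.1 CPM in spleen (0.91 ± 0.13, adjusted p = 0.0210). SREBF1, which encodes the SREBP of fatty acid genes, had 98.2 and 106 CPM in brain, against 52.7 and 68.6 CPM in spleen (0.75 ± 0.17, adjusted p = 0.0722). With the replicate block 5 regulators were called higher, SREBF1, INSIG2 and PPARA in addition. That fit also called more of all genes higher, 7.48% of them. NR1H3, a liver X receptor known to act on SCD, had 5.76 and 4.16 CPM in brain, against 6.67 and 6.57 CPM in spleen (-0.42 ± 0.24, adjusted p = 0.368, edgeR). NR1H2, the other liver X receptor of the list, was not called by edgeR with or without the replicate block. Fewer regulators were called without brain replicate 1 or brain replicate 2, and more without spleen replicate 1 or spleen replicate 2. Each of these fits called more of all genes than the fit with all libraries did.

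**Figure D5:**
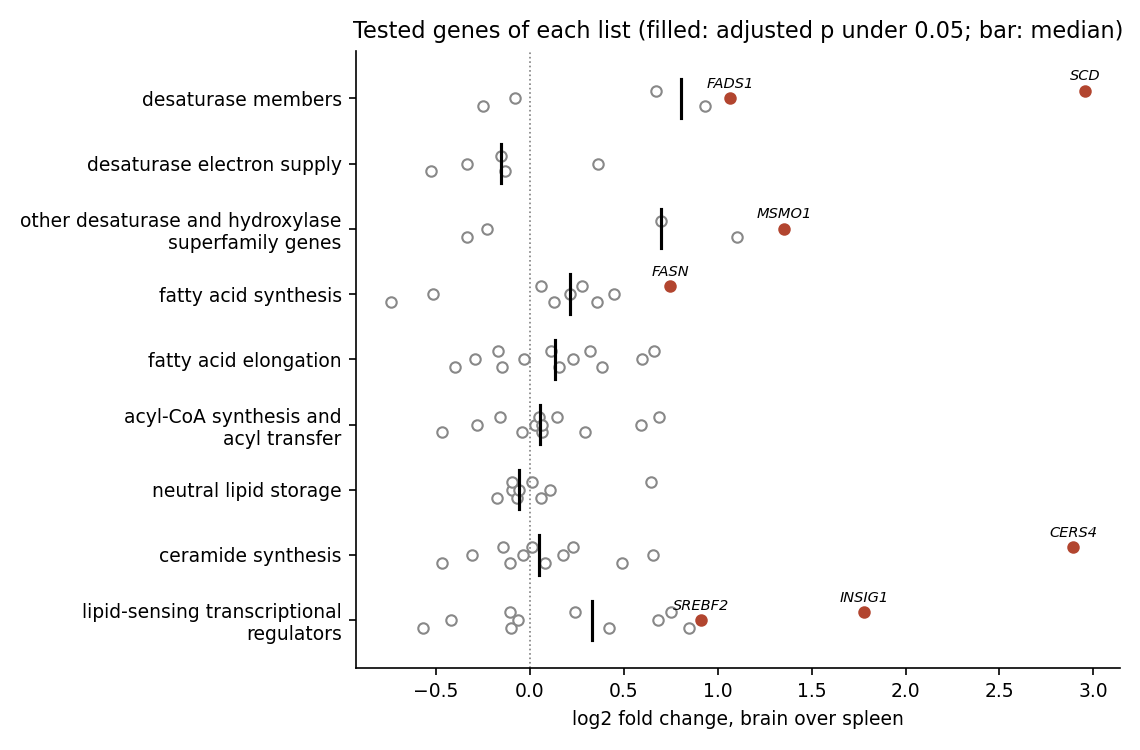
Log2 fold change of brain over spleen for every tested gene of the desaturase members and of the 8 related lists, filled where the adjusted p was under 0.05, with the median of a list as a bar. SCD, FADS1, MSMO1, FASN, CERS4, INSIG1 and SREBF2 are filled, and the medians run from -0.16 for the electron supply to 0.80 for the members.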

How the data were processed

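RNA sequencing was carried out on 4 libraries, 2 of SEM cells from brain and 2 from spleen. The submitters' processing notes name kallisto 0.42.4, DESeq2, cutadapt 1.5 and bcl2fastq 1.8.4, and the builds GRCh38 and GRCm38; per the labels' protocols the library kit was TruSeq Stranded mRNA. The strand option is not stated in the sources at hand. The deposited gene table holds estimated counts in whole numbers, without normalization; sums over transcripts matched it within 1 count for 74.7% to 76.2% of genes of over 50 counts. The deposited transcript files hold estimated counts and TPM of 198457 human and 103639 mouse transcripts. TPM were rescaled here to human transcripts and summed per gene, and estimated counts of transcripts were rounded before testing. A deposited table of regularised log values was not used, nor were 2 columns of values whose names match no sample. Of the gene identifiers 86.4% were found in GENCODE release 44.

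Brain was compared with spleen by edgeR 4.0.16 (R 4.3.3) in a robust quasi-likelihood fit over all genes, with TMM factors, filterByExpr by group and Benjamini-Hochberg adjustment, called under 0.05 and two-sided. The SE is the log2 fold change divided by the root of the test statistic. The smallest p of an exact permutation test of 2 against 2 is 0.333. Intervals of fold changes are at 95%; floors cover counting error only. Per the labels' protocols the numbers 1 and 2 stand for the independent occasions of the experiment, and so pair the libraries by occasion; no pairing shows in the values, since the deviations of same-numbered libraries correlated at 0.0269 (Pearson) and -0.0149 (Spearman) over genes (not independent replicates). The mean chi-square per gene between the libraries of a group was 9.36 for brain and 64.4 for spleen, above sampling noise. Alternatives were the replicate block, RLE size factors, DESeq2 1.42.0 with and without the block, other filters, transcript sums, protein-coding genes, removal of GC and length trends, and leaving out each library.

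The members and lists were chosen with earlier results of these data known. Named genes were all members, the called genes of each related list or, where none was called, the 2 of highest level, and the 5 profiles nearest to SCD. SC5D, NR1H3, SREBF1, single markers and the other genes called under the block, the 2 neighbours at the ends of the range and single transcripts were named after their values were seen. Protein sequences and mouse gene names were not used here.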

Additional observations from a re-analysis of the deposited data

How the results depend on the processing

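SCD and FADS1 kept their direction and their call in all 14 alternatives, at 2.72 to 3.09 and 0.93 to 1.14 on the log2 scale. Fits that leave a group with 1 library assume that it varies like the other group. The cause of the changes that follow was not tested.

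FADS2 passed with the replicate block (0.67), DESeq2 (0.63), no filter (0.68), the GC and length trend removed (0.72) and the same with the replicate block (0.72). FADS3 passed in the same settings, at 0.93 with the replicate block, 0.89 with DESeq2, 0.94 with no filter, 1.06 with the trend removed and 1.06 with trend removal and replicate block. Leaving out a library gave 0.57 to 0.75 for FADS2, 0.79 to 1.06 for FADS3, -0.37 to -0.16 for DEGS1 and -0.29 to 0.10 for SCD5, which turned positive at 0.03 without brain replicate 1 and at 0.10 without spleen replicate 2. The count of members called higher was 4 in each of the 5 settings named for FADS2 (the same settings called 1278 of 17075, 526 of 15790, 1269 of 34540, 441 of 17075 and 1249 of 17075 genes higher in all, in that order) and 2 with DESeq2 and the replicate block; leaving out a library gave 2 to 4 higher and 0 to 1 lower.

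Calls in the related lists, in either direction, moved as follows. Over all genes the main fit called 2.02% in either direction, and the replicate block 10.9%. With the replicate block they were 2 for other superfamily genes, 1 for elongation, 2 for acyl-CoA genes and 5 for regulators, and it changed no other list count beyond 1.5 times. DESeq2 gave 2 superfamily genes and 5 regulators, and DESeq2 with the replicate block 2 superfamily and 0 synthesis genes. RLE size factors, the stricter filter and protein-coding genes alone each gave 0 synthesis genes. Without a filter the counts were 1 for electron supply, 2 for superfamily, 1 for elongation, 2 for acyl-CoA, 2 for ceramide and 5 for regulators. Transcript sums gave 4 regulators. Removal of the GC and length trend gave 2 superfamily genes and 4 regulators, and with the replicate block 2 superfamily, 2 synthesis, 1 elongation, 1 neutral lipid and 2 ceramide genes and 5 regulators. Leaving out a library gave 0 to 4 for electron supply, 1 to 3 for superfamily, 0 to 4 for synthesis, 0 to 6 for elongation, 0 to 5 for acyl-CoA, 0 to 2 for neutral lipid, 1 to 5 for ceramide and 1 to 8 for regulators. The highest counts but that of synthesis came without spleen replicate 1, where 6807 of 17971 genes were called.

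For member transcripts DESeq2, chosen after seeing the data, called 8, and leaving out a library gave 0 to 4 with edgeR.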
